A study of Mus musculus with 6 samples.

Results

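The genes of the constitutive proteasome were followed in splenic CD4+ T cells of C57BL/6 mice of premenopausal age, with and without angiotensin II. Members were all genes whose name in the library files is Psma, Psmb, Psmc or Psmd followed by a number, without the immunoproteasome genes Psmb8, Psmb9 and Psmb10 and the thymic subunit Psmb11, which gave 35 of the 39171 genes in the files. RNA was sequenced in 3 libraries per group, and the design text gives 3 mice per group. AngII mice received angiotensin II, the vasoactive peptide of the renin-angiotensin system, at 800 ng/kg/min from an osmotic minipump for 14 days, starting at 10 weeks of age. Control mice of the same strain and starting age are labelled untreated, and the labels do not say whether they carried a pump. The values are FPKM, in which the authors scaled fragments to the length of the transcript and the size of the library, so levels can be set side by side between genes. The read depth behind each value is unknown.

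The proteasome is the barrel-shaped protease of the cytosol and nucleus that degrades proteins tagged with ubiquitin. Its core particle, the 20S proteasome, is built of outer rings of alpha subunits, which form the gate, and inner rings of beta subunits, which carry the catalytic sites. The 19S regulatory particle caps the core: its ATPases unfold substrates and thread them in, and its lid removes ubiquitin. In lymphocytes part of the catalytic beta subunits is replaced by the interferon-inducible immunoproteasome subunits, which alter the peptides offered to MHC class I. Transcription of the constitutive genes is known to be raised as a group by the factor NRF1 (Nfe2l1) when proteasome activity falls short.

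The libraries carried the 5 CD4 T cell markers examined (Cd3e, Cd3g, Cd4, Lck and Trbc2), none at 0, with a summed level of 2244 to 2737 FPKM in Control and 2069 to 2449 in AngII. The mean was lower in AngII for 4 of these 5. Markers of other spleen cells were present too. Those of macrophages (5 of 7 with a higher mean in AngII, summed level 973 to 1677 FPKM in Control and 1216 to 2466 in AngII), neutrophils (6 of 7 higher, 8.01 to 41.4 and 23.6 to 74.6) and platelets (5 of 5 higher, 77.8 to 242 and 152 to 204) had mostly higher means in AngII. Markers of B cells (5 of 5), CD8 T cells (2 of 2), NK cells (4 of 4) and plasma cells (4 of 4) and the early response genes (8 of 8) had lower means, and the summed levels of each of these lists overlapped between the groups. Of the 5 erythroid markers 3 had a higher and 2 a lower mean in AngII (summed level 255 to 421 FPKM in Control and 136 to 613 in AngII). The part of all these markers in the proteasome values was not tested. Summed FPKM per library lay between 613674 and 717286. In bulk RNA such as this, fewer cells of a type and less RNA per cell cannot be told apart.

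No constitutive proteasome gene differed between AngII and Control by the test used, and the levels of most were a few percent lower in AngII. Of the 35 genes, 34 had a mean of at least 1 FPKM and were tested with limma on log2(FPKM + 1), with Benjamini-Hochberg adjustment over all 11842 genes tested. In this comparison 0.0338% of all genes passed an adjusted p of 0.05, and 0 of the 34 members did (adjusted p = 0.9999 for each). The unadjusted limma p was under 0.05 for 0 of the 34 as well, where it was for 1.76% of all genes. Without the filter on low values it was under 0.05 for 1 member, Psmb5 (2.67% of all genes). The mean was lower in AngII for 30 of the 34 members, against 52% of all genes, and the median log2 difference was -0.07 for the members and -0.004 for all genes. Every AngII library lay below every Control library for 8 of the 34, where this holds for 3.48% of all genes, and above for 0, where it holds for 2.36%. The 95% intervals of the 34 differences lay between -0.33 and 0.19 on the log2 scale, with a median half-width of 0.16, against 0.26 over all genes.

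**Figure D1:**
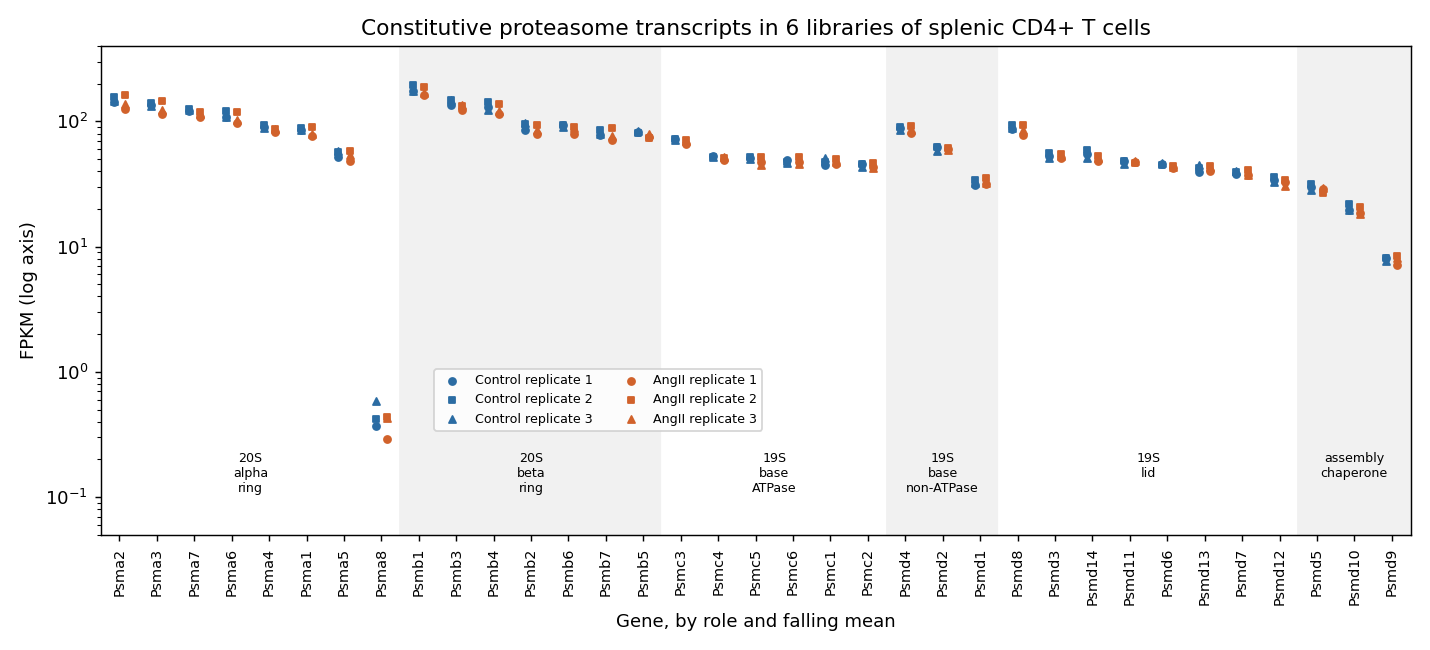
FPKM (log axis) of the 35 constitutive proteasome genes in 6 libraries, ordered by role in the particle and by falling mean, with Control in blue, AngII in orange and the replicate number as the marker shape. The highest genes are core genes, Psma8 stands alone below 1 FPKM, and the 6 libraries of a gene lie close together.

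Alpha ring genes were among the highest of the set. Psma2, the highest of them, measured 144, 155 and 146 FPKM in Control and 125, 161 and 137 in AngII, given here and throughout in the order of replicates 1, 2 and 3. The groups overlapped, since AngII replicate 2 held the highest value and AngII replicate 1 the lowest. Psma7 was at 120.0, 126 and 123 FPKM in Control and 107, 120 and 114 in AngII (means 123 ± 3.09 and 114 ± 6.08, SD, n = 3). Its AngII libraries were all below the Control libraries, by a margin under 1 FPKM, and its log2 difference of -0.12 (SE 0.061) was the most negative of the ring (limma unadjusted p = 0.103). Psma4 was the other alpha gene without overlap, at 89.7, 92.8 and 89.1 FPKM in Control and 82.9, 86.8 and 86.6 in AngII, a log2 difference of -0.08.

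Psma5, the lowest alpha gene of the standard ring, was at 52.0, 56.9 and 58.3 FPKM in Control and 48.4, 58.0 and 53.6 in AngII, and its groups overlapped. Psma1, Psma3 and Psma6 had log2 differences from -0.10 to -0.07 with overlapping groups, so that all 7 alpha genes tested had a lower mean in AngII and none passed. Psma8 encodes an alpha subunit that takes the place of Psma7 in the testis. It was at 0.371, 0.420 and 0.588 FPKM in Control and 0.291, 0.437 and 0.432 in AngII, under the filter, and was not tested. Its 6 values show no order between the groups, and all stayed below 1 FPKM.

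The beta ring carries the catalytic subunits Psmb5 (chymotrypsin-like activity), Psmb6 (caspase-like) and Psmb7 (trypsin-like). On GRCm38, GENCODE M21 places Psmb5 (ENSMUSG00000022193) on chromosome 14 from 54614119 to 54618022, Psmb6 (ENSMUSG00000018286) on chromosome 11 from 70525367 to 70527858, and Psmb7 (ENSMUSG00000026750) on chromosome 2 from 38588036 to 38644087, where its annotated span overlaps Nek6. Psmb5 was at 81.5, 81.1 and 83.8 FPKM in Control and 74.5, 73.3 and 79.5 in AngII (means 82.1 ± 1.43 and 75.8 ± 3.29, SD, n = 3). The groups did not overlap, and the log2 difference of -0.12 (SE 0.055, 95% interval -0.25 to 0.019) had the smallest unadjusted limma p of the members, 0.0810. Psmb6 was at 93.4, 94.4 and 89.9 FPKM in Control and 79.5, 89.4 and 88.2 in AngII, again without overlap (log2 difference -0.11, limma unadjusted p = 0.137). AngII replicate 1 was the lowest library, and without it the log2 difference was -0.06.

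Psmb7 was at 77.2, 85.0 and 79.2 FPKM in Control and 71.4, 88.2 and 76.5 in AngII, a log2 difference of -0.04. Here the AngII libraries held both the highest and the lowest of the 6 values. The 3 catalytic genes were at similar levels to each other, with means over 6 libraries of 79.0 (Psmb5), 89.1 (Psmb6) and 79.6 FPKM (Psmb7).

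Among the structural beta subunits, Psmb1 was the highest member of all, at 175, 195 and 175 FPKM in Control and 163, 189 and 168 in AngII. Its groups overlapped through AngII replicate 2. Psmb3 had the largest difference of the whole set: 136, 148 and 148 FPKM in Control and 124, 134 and 135 in AngII (means 144 ± 7.10 and 131 ± 6.38, SD, n = 3). That is a change of -8.89% in the mean and a log2 difference of -0.13 (SE 0.066, 95% interval -0.29 to 0.028, limma unadjusted p = 0.0897). The highest AngII library, replicate 3, was less than 1 FPKM under the lowest Control library. Psmb2 and Psmb4 had log2 differences of -0.10 and -0.08 with overlapping groups, which made 7 of 7 beta genes with a lower mean and 3 of 7 without overlap (3.48% of all genes).

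In the 19S base, the ring of 6 ATPases was measured at about the same level for every subunit, from 44.6 (Psmc2) to 70.4 FPKM (Psmc3) as means over 6 libraries. Psmc3 was at 71.9, 72.6 and 71.4 FPKM in Control and 65.4, 71.395 and 69.8 in AngII. The groups are parted by less than 0.01 FPKM, with AngII replicate 1 well below the rest. Psmc4 was at 53.1, 52.3 and 52.4 FPKM in Control and 48.9, 50.5 and 52.1 in AngII, also without overlap and also by a narrow margin. Psmc5 had the most negative difference of the ATPases (-0.09 on the log2 scale), with 51.4, 52.1 and 49.8 FPKM in Control and 47.5, 51.7 and 45.2 in AngII, where the groups overlapped.

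Psmc6 had the most positive difference of all members (0.02), at 48.8, 47.6 and 46.3 FPKM in Control and 47.4, 52.1 and 45.5 in AngII. AngII replicates 2 and 3 stood at opposite ends of its 6 values. Psmc2, at 45.7, 46.0 and 43.5 FPKM in Control and 43.3, 46.4 and 42.8 in AngII, and Psmc1 (log2 difference -0.01) overlapped as well. None of the 6 ATPase genes passed the test.

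The base also holds Psmd1 and Psmd2, its large scaffold subunits, and Psmd4, a ubiquitin receptor. Psmd4, the highest of the 3, was at 88.0, 89.4 and 85.9 FPKM in Control and 81.2, 91.5 and 85.9 in AngII, with a log2 difference of -0.03. Psmd1, the lowest, was at 31.3, 33.7 and 32.5 FPKM in Control and 31.9, 35.1 and 31.9 in AngII, a log2 difference of 0.02. Both had AngII replicate 2 as their highest library, and Psmd2 had a difference of -0.01, so that all 3 genes lay near 0 and overlapped.

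Of the 8 lid genes, Psmd8 was the highest, at 87.2, 93.3 and 88.4 FPKM in Control and 78.5, 93.1 and 84.8 in AngII, and Psmd12 the lowest, at 33.9, 35.7 and 32.8 FPKM in Control and 32.7, 34.0 and 30.3 in AngII. Both overlapped between the groups. Psmd14, the deubiquitinase of the lid, had the most negative lid difference (-0.10): it was at 54.5, 58.5 and 50.7 FPKM in Control and 48.5, 53.3 and 51.2 in AngII. The value of Control replicate 2 stood above the others, and the groups overlapped. Psmd6 was the lid gene without overlap, at 45.9, 44.8 and 46.2 FPKM in Control and 42.6, 44.3 and 42.9 in AngII (log2 difference -0.08, SE 0.049, limma unadjusted p = 0.172).

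Psmd11 was the steadiest member, at 47.9, 48.1 and 45.9 FPKM in Control and 47.5, 46.6 and 48.6 in AngII, a coefficient of variation of 2.11% over 6 libraries and a log2 difference of 0.01. Psmd3, Psmd7 and Psmd13 had differences between -0.02 and 0.003. In the lid, 6 of 8 genes had a lower mean in AngII, and 0 of 8 passed.

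Psmd5, Psmd9 and Psmd10 bear the family name but encode chaperones that assemble the base and leave before the particle is finished. They were the lowest of the 34 genes tested. Psmd5 was at 29.8, 31.5 and 28.6 FPKM in Control and 29.1, 26.8 and 29.2 in AngII, and Psmd10 (gankyrin) at 19.7, 21.9 and 19.6 FPKM in Control and 18.4, 20.7 and 18.1 in AngII. Psmd9 was at 8.06, 8.06 and 7.63 FPKM in Control and 7.08, 8.45 and 8.15 in AngII. All 3 overlapped between the groups, with log2 differences of -0.08, -0.09 and -0.01.

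**Figure D2:**
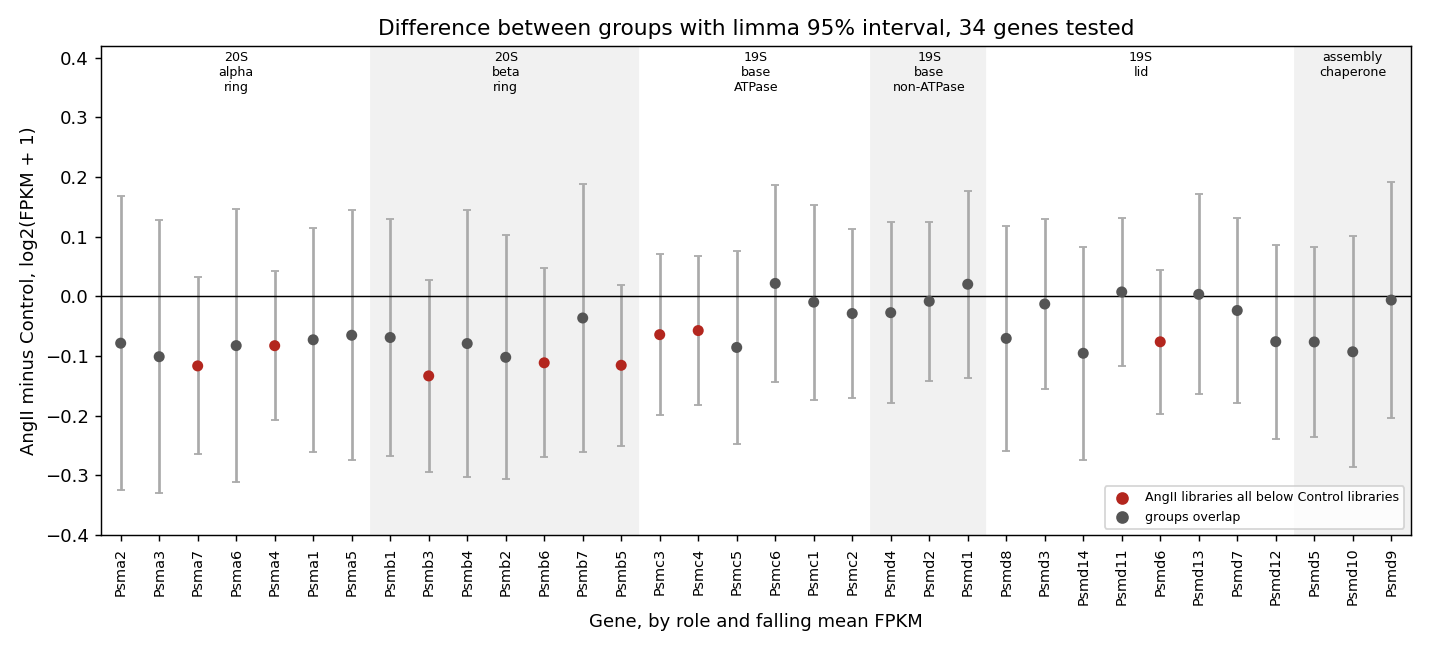
AngII minus Control on the log2(FPKM + 1) scale with the limma 95% interval for the 34 genes tested, by role, 3 libraries per group, red where all AngII libraries lay below all Control libraries and grey where they overlapped. The 14 core genes all lie below 0 and the 17 genes of the regulatory particle lie nearer to it in their median, while every interval includes 0.

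By role, core genes had the larger differences. All 14 core genes tested had a lower mean in AngII, with a median log2 difference of -0.08 and 5 of 14 below every Control library (3.48% of all genes). Of the 17 genes of the regulatory particle (base and lid) 13 had a lower mean, with a median of -0.03 and 3 of 17 below every Control library. The difference between core and regulatory particle was not tested. The medians of core and regulatory particle were -0.03 and -0.01 when AngII replicate 1 was left out, -0.15 and -0.06 when AngII replicate 2 was, and -0.05 and -0.00015 after quantile normalization. The count of lower core genes was 11 of 14 without AngII replicate 1 and 13 of 14 without Control replicate 2. After quantile normalization it was 13 of 14, while 24 of all 34 members were lower (50.1% of all genes) and 2 of 34 lay below every Control library (3.54% of all genes). With median-of-ratios scaling 29 of 34 were lower (49% of all genes) and 3 of 34 lay below every Control library (3.58% of all genes). Core genes were also higher, with a median of 99.3 FPKM against 47.9 for the regulatory particle, and within each particle the highest and lowest gene differed by 3.25 and 2.67 times.

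The members varied together between libraries, in a pattern that followed the groups only in part. In AngII replicate 1, 21 of the 34 members were at their lowest of the 6 libraries (61.8%, against 20.9% of all genes tested), among them all 7 alpha genes and 6 of 7 beta genes. Control replicate 2 held the highest value of 15 members (44.1%, against 18.4% of all genes tested). AngII replicate 2 held that of 10 (29.4%, against 21.9%). The median deviation of the 14 core genes from their own means was 0.006, 0.10 and 0.02 in Control replicates 1, 2 and 3 and -0.15, 0.09 and -0.06 in AngII replicates 1, 2 and 3 on the log2 scale. AngII replicate 2 thus stood beside Control replicate 2, above the other AngII libraries. The median deviation of the 17 regulatory genes had a smaller range, from -0.06 in AngII replicate 1 to 0.05 in AngII replicate 2. The median deviation over all genes tested stayed between -0.02 and 0.03. Of the 17 regulatory genes, 7 were at their lowest in AngII replicate 1 (41.2%, against 20.9% of all genes tested). A further 5 were at their lowest in AngII replicate 3 (29.4%, against 5.93%).

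AngII replicate 1 also had the lowest summed FPKM (613674), the lowest summed level of CD4 T cell markers (2069 FPKM, against 2244 to 2737 in the other libraries) and the lowest of 8 early response genes (2107 FPKM, against 2257 to 3892). The summed levels of erythroid (136 FPKM, against 255 to 613) and plasma cell markers (74.8 FPKM, against 89.3 to 195) were lowest there as well. So were those of B cell (31.2 FPKM, against 32.2 to 103) and NK cell markers (54.51 FPKM, against 54.84 to 72.6), by small margins. None of these markers was at 0 in all libraries. AngII replicate 2 stood out in other values. It had the highest summed level of macrophage markers (2466 FPKM, against 973 to 1677 in the other libraries). Its summed level of neutrophil markers was also the highest (74.6 FPKM), with AngII replicate 3 close to it (71.7 FPKM). It also held the lowest value of 29.8% and the highest of 21.9% of all genes tested, the largest shares among the libraries. Without AngII replicate 1, the median difference of the members was -0.02, with 23 of 34 lower (50.4% of all genes) and 8 of 34 below every Control library (4.61% of all genes). Without AngII replicate 2, it was -0.10, with 33 of 34 lower (48.3% of all genes) and 21 of 34 below every Control library, where the share for all genes also went up, to 11.8%. The unadjusted limma p was then under 0.05 for 5 members (Psma1, Psma2, Psma3, Psma7 and Psmc5), against 7.75% of all genes, and no member passed with adjustment. With 1 library or another left out, the difference moved by over 1.5 times for 30 of the 34 members, all but Psma4, Psmb3, Psmb5 and Psmd6.

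**Figure D3:**
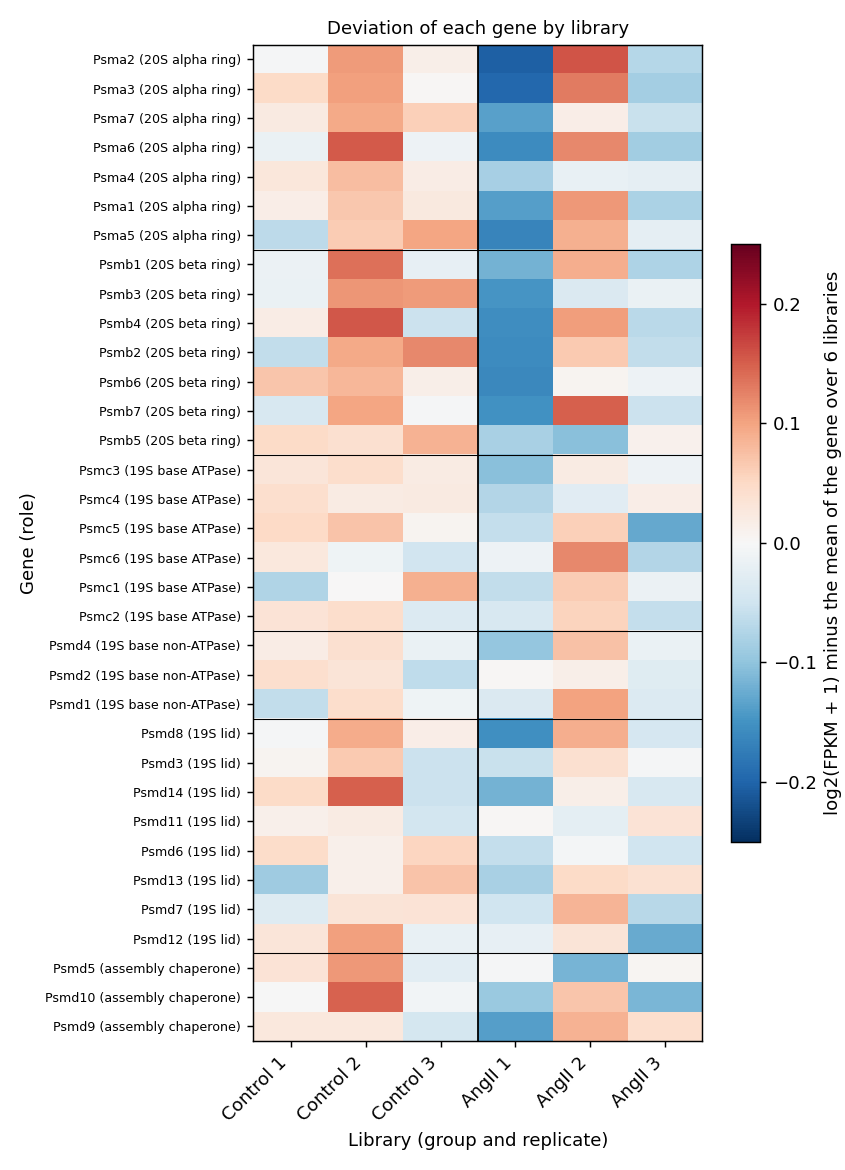
Deviation of log2(FPKM + 1) from the mean of each gene over the 6 libraries (colour, blue below and red above), with the 34 genes tested as rows and the libraries as columns, Control left of the line. AngII replicate 1 is blue for most core genes, while Control replicate 2 and AngII replicate 2 are red.

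Over the 6 libraries the mean Pearson correlation of log2(FPKM + 1) was 0.51 over the 561 pairs of members, against 0.02 over all pairs of genes tested. All points of a pair share the library and its scaling, so these values describe the libraries and carry no test. Alpha ring genes were closest to each other (0.84 over 21 pairs), followed by beta ring genes (0.62), while ATPase genes (0.39) and lid genes (0.32) were looser. Core and regulatory genes had a mean of 0.53 with each other. Psmd8 followed the mean of the other members most closely (r = 0.99), and 17 of 34 genes were above 0.8. Psmd11 (r = -0.20), Psmd5 (0.05), Psmb5 (0.23) and Psmd2 (0.28) followed it least, and these correlations rest on 6 points each.

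The promoters of the members were searched for 3 short motifs on both strands. Whether a motif goes with the shared variation was not tested. The search used the RefSeq windows of 250 bases before to 50 after the start (GRCm38.p6). Of the 35 members 28 had a window, and for 24 of the 28 it ran into a GENCODE transcript start. The antioxidant response element TGACNNNGC, the kind of site that NRF1 binds, was matched in 5 of 28 members (17.9%), against 14.0% of all 27025 genes with a window. The matches are shown because they include the catalytic genes Psmb5 and Psmb6, close to the start. Capitals mark the match, read 5′ to 3′ on the strand named.
Psmb5 (chr14:54618019-54618057, minus strand): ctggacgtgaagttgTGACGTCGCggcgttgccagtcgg
Psmb6 (chr11:70525333-70525371, plus strand): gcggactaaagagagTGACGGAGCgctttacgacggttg
Psmd9 (chr5:123228144-123228182, plus strand): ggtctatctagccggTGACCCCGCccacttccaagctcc
Psmc6 (chr14:45329582-45329620, minus strand): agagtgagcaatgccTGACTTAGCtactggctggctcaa
Psmd12 (chr11:107479278-107479304, minus strand): tgaggggggcaaatgTGACACAGCaga
The match began at -47 in Psmb5, at -31 in Psmd9 and at -9 in Psmb6 relative to the start, and at -227 and -247 in Psmc6 and Psmd12. These 5 genes include members without overlap between the groups (Psmb5, Psmb6) and members near 0 (Psmc6, Psmd9). The Psmd9 match lies inside the gene, which GENCODE M21 places from 123169413 to 123250131.

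The ETS core CCGGAAG, searched after the values were seen, was matched in 10 of 28 members (35.7%), against 9.93% of all genes with a window. For each motif, all genes with a window were counted whether or not they were expressed in these libraries. It stood in 9 of 14 genes of the regulatory particle and in 1 of 11 core genes, Psma6, a split that was not tested. The Psma6 matches lie from chr12:55398678 on, inside the gene, which GENCODE M21 places from 55384222 to 55418454. Examples from the base and the lid, close to the start, are shown in the same way.
Psmc1 (chr12:100110159-100110195, minus strand): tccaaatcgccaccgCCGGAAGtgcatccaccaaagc
Psmd2 (chr16:20651611-20651647, minus strand): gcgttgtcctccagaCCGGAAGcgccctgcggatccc
Psmd6 (chr14:14120969-14121005, minus strand): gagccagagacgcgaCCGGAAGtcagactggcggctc
Psmd11 (chr11:80428589-80428625, minus strand): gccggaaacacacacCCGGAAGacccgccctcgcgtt
Psmd12 (chr11:107479496-107479532, minus strand): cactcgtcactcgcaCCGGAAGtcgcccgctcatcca
Both motifs were present in 2 members, Psmc6 and Psmd12. The CCAAT box, also searched after the values were seen, was matched in 11 of 28 members (39.3%), near the 41.1% of all genes, among them 5 of 7 alpha ring genes. Matches of different motifs overlapped at 2 places. A match of letters is a description of the window and not a measured binding site.

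The immunoproteasome subunits replace the catalytic ones in a fixed way, Psmb8 for Psmb5, Psmb9 for Psmb6 and Psmb10 for Psmb7. Psmb8 was the highest subunit gene of either kind, at 258, 260.3 and 256 FPKM in Control and 226, 223 and 238 in AngII. Psmb9 was at 76.1, 79.3 and 78.2 FPKM in Control and 65.6, 63.1 and 66.5 in AngII, and Psmb10 at 83.8, 93.2 and 88.3 FPKM in Control and 80.1, 76.4 and 81.0 in AngII. All 3 had AngII libraries below every Control library (3.48% of all genes). The log2 differences of -0.17, -0.25 and -0.16 did not pass (limma adjusted p = 0.9999 for each). The unadjusted limma p of Psmb8, Psmb9 and Psmb10 was 0.0166, 0.00246 and 0.0424, where it was under 0.05 for 1.76% of all genes. Their lowest library was AngII replicate 2, where the median constitutive gene lay above its own mean, and their highest was Control replicate 2.

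Within each library the ratio of Psmb8 to Psmb5 was 3.17, 3.21 and 3.05 in Control and 3.03, 3.05 and 2.99 in AngII. The ratio of Psmb9 to Psmb6 was 0.815, 0.840 and 0.869 in Control and 0.825, 0.706 and 0.755 in AngII, and that of Psmb10 to Psmb7 was 1.09, 1.10 and 1.12 in Control and 1.12, 0.866 and 1.06 in AngII. Only the first ratio parted the groups, by a small margin. As log2 ratios of FPKM + 1, AngII minus Control was -0.06, -0.14 and -0.12, with an exact two-sided permutation p of 0.1, 0.2 and 0.4 (adjusted over the 3 ratios, 0.3, 0.3 and 0.4), where 3 libraries against 3 cannot go below 0.1. Leaving out AngII replicate 2 gave differences of -0.06, -0.09 and -0.01, and leaving out AngII replicate 1 gave -0.06, -0.20 and -0.20. Whether immunoproteasome genes differ from constitutive ones in their difference between groups is therefore not shown by these ratios.

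**Figure D4:**
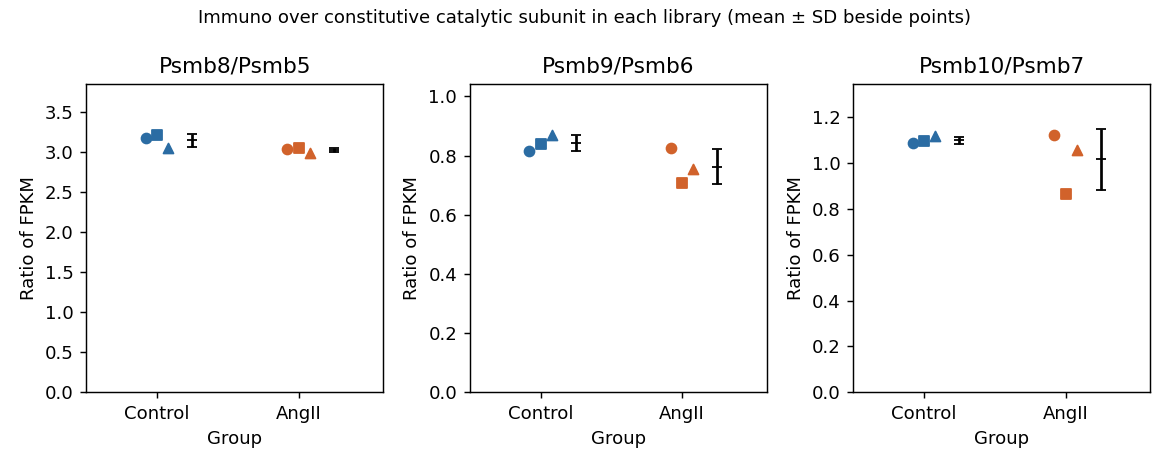
Ratio of FPKM of each immunoproteasome subunit to the constitutive subunit it replaces, per library (circle, square and triangle for replicates 1, 2 and 3), with the mean and SD of 3 libraries beside the points. AngII replicate 2 had the lowest ratio for Psmb9/Psmb6 (0.706) and for Psmb10/Psmb7 (0.866).

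Of 32 other genes of the proteasome pathway, 31 were found and 30 tested, and 0 passed limma, with 5 at an unadjusted p under 0.05 (1.76% of all genes). These were Psmb8, Psmb9, Psmb10, Psme2 and Ecpas. The mean was lower in AngII for 19 of the 30 (52% of all genes), with a median log2 difference of -0.02. The groups did not overlap for 5 of 30 as lower (3.48% of all genes), Psmb8, Psmb9, Psmb10 and the PA28 activator genes Psme1 and Psme2, and for 1 of 30 as higher (2.36% of all genes), Ecpas. Psme1 and Psme2, named after their values were seen, were at 219, 224.3 and 224 and at 167, 184 and 176 FPKM in Control, and at 188, 218 and 195 and at 143, 160.5 and 158 in AngII (log2 differences -0.16 and -0.19). Both are interferon-inducible, like Psmb8, Psmb9 and Psmb10.

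Ecpas, which encodes the scaffold protein ECM29 that binds the core and the regulatory particle, was at 14.5, 12.2 and 13.6 FPKM in Control and 16.5, 14.6 and 16.0 in AngII. It had the largest positive difference of the list (0.21, SE 0.085, limma unadjusted p = 0.0464), and its AngII libraries were all above the Control libraries, replicate 2 by less than 0.1 FPKM. Rad23b, a shuttle for ubiquitinated proteins, followed with 0.04. Next to Psmb9 the most negative was Psmg3, an assembly chaperone, at 9.49, 12.0 and 12.1 FPKM in Control and 10.1, 8.84 and 9.88 in AngII (-0.20, and -0.30 without Control replicate 1), where Control replicate 1 lay among the AngII values. Pomp, which matures the core, was at 123, 138 and 134 FPKM in Control and 114, 140.0 and 118 in AngII (log2 difference -0.09, and -0.03 and -0.18 without AngII replicate 1 and 2), with AngII replicate 1 lowest as in most core genes. Nfe2l1 was at 30.4, 29.5 and 31.0 FPKM in Control and 30.1, 28.0 and 31.6 in AngII (log2 difference -0.02), with overlapping groups.

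In the authors' deposited table of their own comparison, all 35 members had a row and 0 were significant. For the 34 with a row of their own, p lay between 0.2536 (Psmb3) and 0.9915 (Psmd11) in the authors' deposited table. Psmd1 shares its row there with Armc9 and Gm21972. Of the 34 members other than Psma8, 8 overlap another protein-coding gene in GENCODE M21: Psma2, Psma4, Psmb7, Psmc3, Psmd1, Psmd5, Psmd9 and Psmd13. Whether counting used the strand is not given in the sources used here, so part of their reads could belong to the neighbour. The pseudogenes Psmb5-ps and Psmb6-ps were listed at 0 in all 6 libraries and Psmb7-ps2 at up to 0.102 FPKM.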

How the data were processed

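RNA of splenic CD4+ T cells in 3 Control and 3 AngII libraries was sequenced after isolation with a CD4+ T cell kit and Illumina TruSeq library preparation, per the labels' protocols. Trimmomatic 0.32, TopHat2 2.1.1, Cuffdiff and the build GRCm38.p3 are named in the submitters' processing notes. The authors deposited 1 file of FPKM per library, and the sources used here do not name the program behind these files. The authors deposited a table of their own comparison as well, with a p-value and a q-value per gene. Its conditions are named by number, so no direction was taken from it.

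FPKM is not a count, so log2(FPKM + 1) was tested with limma 3.58.1 in R 4.3.3 (eBayes with trend, two-sided), for genes whose mean reached 1 FPKM. This scale understates changes of low genes. The same code was tested on simulated data. Adjusted p below 0.05 over all genes was the threshold. Ratios were compared by exact permutation. Other steps used scipy 1.17.1, matplotlib 3.10.9, numpy 2.4.6, pandas 2.3.3 under Python 3.11.15.

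Genes given with the value of each library were the catalytic subunits and, per role, the highest, the lowest, the largest difference in each direction and those without overlap. Paaf1 of the pathway list was not analysed here. The members, lists and tests were chosen with earlier results of these data known. Alternatives were other pseudocounts (0.1 or 5), filters (none or 5 FPKM), scalings, eBayes without trend, a replicate block and leaving out each library.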

Additional observations from a re-analysis of the deposited data

How the results depend on the processing

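No constitutive proteasome gene passed limma under any alternative run (0 of 34, or of 35 without a filter). The adjusted p of a member was at least 0.632 in every setting. The median difference of the members stayed negative throughout, from -0.103 to -0.023 when leaving out each library, the latter without AngII replicate 1. The number of members without overlap, all lower, was 3 with median-of-ratios scaling (3.58% of all genes) and 2 with quantile normalization (3.54% of all genes). It was 8 to 21 when leaving out each library. The 21 came without AngII replicate 2, where 11.8% of all genes lay below every Control library. The share of all genes is not given here for leaving out a Control library or AngII replicate 3. Over all genes limma called 7 without a filter, and 4 to 9 when leaving out each library. With quantile normalization the members with a lower mean were 24 of 34, and the sign was the opposite for Psmb7 (0.0044), Psmc1 (0.0098), Psmd2 (0.026), Psmd3 (0.00062), Psmd4 (0.015) and Psmd9 (0.0041, and 0.00016 with median-of-ratios scaling). The cause was not tested. Of the 34 members 21 kept their direction in every setting. When leaving out each library, these values crossed 0: Psma2 (-0.176 to 0.0036), Psma5 (-0.126 to 0.0014), Psmb7 (-0.120 to 0.030), Psmc1 (-0.050 to 0.032), Psmc6 (-0.033 to 0.064), Psmd1 (-0.024 to 0.047), Psmd2 (-0.042 to 0.011), Psmd3 (-0.042 to 0.017), Psmd4 (-0.071 to 0.014), Psmd7 (-0.072 to 0.0053), Psmd9 (-0.051 to 0.061), Psmd11 (-0.013 to 0.022), Psmd13 (-0.040 to 0.044) and Nfe2l1 (-0.061 to 0.024). The 3 ratios stayed negative with other pseudocounts, quantile normalization, the replicate block and each library left out, with a range of -0.196 to -0.012 for Psmb10 to Psmb7.

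Libraries of Control and AngII with the same replicate number were not taken as pairs, since their deviations from the group means had correlations of -0.08, -0.02 and -0.04 over all genes tested. Over the 34 members these were 0.43, 0.45 and 0.26, each library nearest its own number. This comes from the data and not from the design. The members vary together and are not independent points, so these correlations do not show pairing. With the replicate number as a block, limma called 3 genes over all and 0 members, and 0 members had an unadjusted p under 0.05.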
